A study of Sus scrofa with 10 samples.

Results

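The genes described here handle thyroid hormone inside the hypothalamus or mark tanycytes, the glia that line the floor of the third ventricle. They were taken as the rows named DIO2, DIO3, CRYM, GPR50, RAX, TSHR or VIM, and all 7 symbols were found, with 1 row each, among 25009 gene rows. The samples were hypothalamus from 10 pigs of an Iberian x Landrace backcross, 5 with high and 5 with low growth and fatness, and both groups shared that cross and tissue. Sex, age and diet were not given in the sources used here. Messenger RNA was measured as FPKM, sequenced fragments scaled to transcript length and library size, so that levels of different genes can be compared. For each gene the file gave a single FPKM value in each group between deposited bounds (printed in parentheses below), so no spread between animals and no test across animals could be had, and the depth of each sample is unknown.

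As background, the thyroid gland releases mainly the prohormone thyroxine, and the active hormone triiodothyronine is made from it by outer-ring deiodination inside target tissues. In the hypothalamus the activating enzyme, type 2 deiodinase, sits in tanycytes and astrocytes, and the inactivating enzyme, type 3 deiodinase, clears both hormones. In seasonal birds and mammals thyrotropin from the pars tuberalis of the pituitary acts on its receptor in tanycytes and shifts the balance between the deiodinases. The animals came from opposite ends of growth and fatness, and the question put to these genes was whether their levels differ between those ends.

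None of the 7 genes had bounds that separated the groups. The conversion enzymes differed little in value, at 6.19 against 5.77 FPKM for DIO2 and 1.32 against 1.56 FPKM for DIO3 (high against low group). GPR50, an orphan receptor of tanycytes, had the highest ratio among the 6 genes above the filter on low values, at 1.58 times the low-group value in the high group. VIM, the intermediate filament vimentin, was the most abundant and lay the other way, at 223 FPKM in the high and 316 FPKM in the low group. RAX, the homeobox factor that marks tanycytes, was close to 0 in both groups.

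Over the whole table, the bounds failed to overlap in 70 of 15281 rows that had an estimate in both groups and averaged 1 FPKM or more (0.458%). As shares of all these rows, 0.0262% had the high group above and 0.432% the low group above. Against that background, 0 of the 6 members above the filter separated. With no filter, 72 of 24951 rows separated, and 0 of all 7 members did. An FPKM ratio of at least 1.5 in either direction was met by 9.96% of rows, 3.25% with the high group above (496 rows) and 6.71% with the low group above (1026 rows), a split that became 735 and 710 rows once scaled by median of ratios. It was met by 1 of the 6 members above the filter, GPR50. The low-group values of GPR50 and TSHR were below 1 FPKM, at 0.873 and 0.901 FPKM, so both passed the filter only through the high group. The member counts and median given here include both. Differences are high-group minus low-group values of log2(FPKM + 1), and the added 1 shrinks the differences of weakly expressed genes. Their median over all tested rows was -0.10, and 32.3% of rows were higher in high-group pigs. Of the 6 members above the filter, 4 were higher in high-group pigs (CRYM, DIO2, GPR50 and TSHR) and 2 in the low group (DIO3 and VIM), with a median of 0.14. Scaling by median of ratios brought the share of all rows with the higher value in high-group pigs to 50.1%, and left the members split 4 and 2. Summed over all rows with an estimate in both groups, FPKM came to 403015 in the high and 488491 in the low group. The summed levels of lists below are as deposited and are to be read beside these sums.

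**Figure D1:**
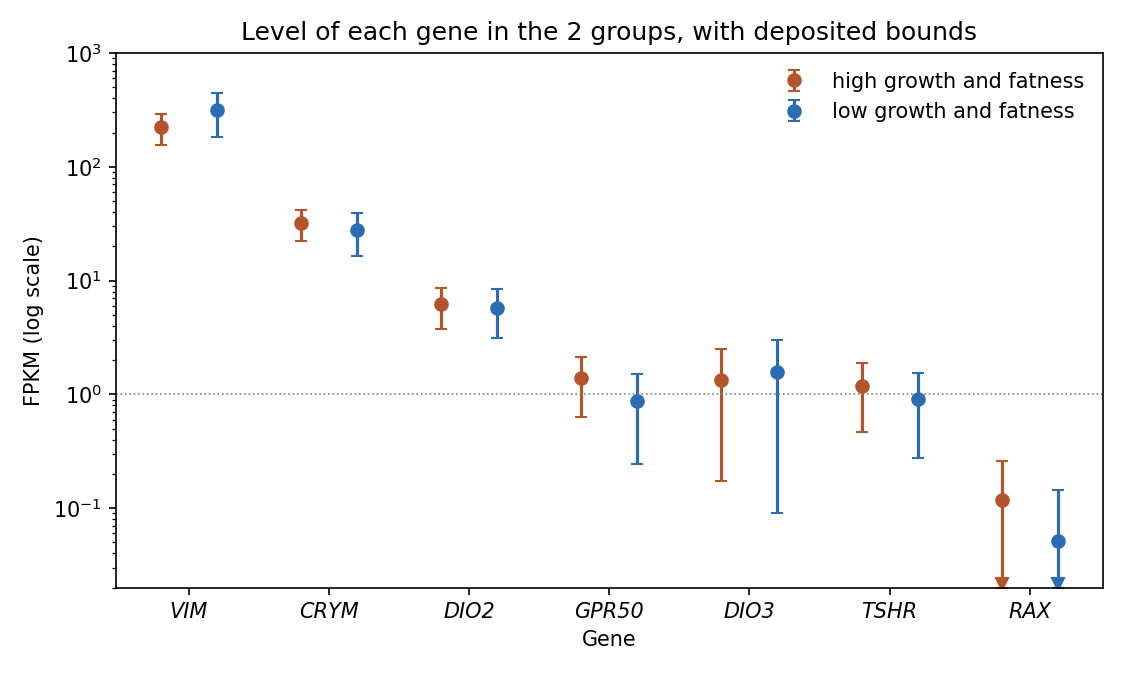
FPKM (log scale) of the 7 genes in the high group and the low group, 1 deposited value per group with its deposited bounds as bars; triangles mark the lower bounds of 0 for RAX, and the dotted line marks 1 FPKM. In every gene the bounds of the groups overlap, from VIM at 223 and 316 FPKM down to RAX at 0.118 and 0.0515 FPKM.

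The order of levels had wide steps at the top and the bottom and a flat stretch between them. VIM stood 6.99 times above CRYM in the high group and 11.4 times in the low group. CRYM stood 5.16 and 4.82 times above DIO2. These neighbours in the order did not overlap in either group. GPR50, DIO3 and TSHR followed between 0.873 and 1.56 FPKM, with overlapping bounds, and their order was GPR50, DIO3, TSHR in the high group and DIO3, TSHR, GPR50 in the low group. RAX had the lowest value in both groups. Its bounds did not reach those of TSHR or GPR50 in either group, but overlapped those of DIO3, whose bounds were wide. Among 24951 rows with an estimate in both groups, VIM ranked at position 251 in the high and 209 in the low group, CRYM at 2020 and 2605, and DIO2 at 8318 and 8958.

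DIO2 encodes type 2 deiodinase, the selenoenzyme that makes triiodothyronine from thyroxine in brain. It had 6.19 FPKM (bounds 3.76 to 8.63) in high-group pigs and 5.77 FPKM (bounds 3.09 to 8.44) in low-group pigs. The intervals overlapped over most of their length. The high-to-low ratio was 1.07, the log2 difference was 0.09, and the bounds allowed ratios from 0.445 to 2.79. With bounds this far from the values, relative to the values, a ratio of 2.41 would have been needed for the high group to separate. Its bounds lay 39.3% and 46.4% from the value, close to the medians of 39.5% and 45.1% over 2204 rows of like level (within a factor of 1.25 of its mean). The row lies on chromosome 7 (109298355 to 109308540 on build Sscrofa10.2, as the file gives it). The nearest named rows on either side are NRXN3, a synaptic adhesion gene, at 5.88 against 3.65 FPKM, and CEP128, a centrosomal gene, at 0.722 against 0.851 FPKM.

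DIO3 encodes type 3 deiodinase, which inactivates thyroxine and triiodothyronine. It had 1.32 FPKM (bounds 0.173 to 2.48) in high-group pigs and 1.56 FPKM (bounds 0.0910 to 3.03) in low-group pigs. The high-group interval fell wholly inside the low-group one. The low-to-high ratio was 1.18 and the log2 difference -0.14. The bounds allowed low-to-high ratios from 0.0367 to 17.5, and a ratio of 32.1 would have been needed for the low group to separate, so the data carry little information on the size or direction of a DIO3 difference. The bounds lay 87.0% and 94.2% from the value, against medians of 56.7% and 62.7% over 1220 rows of like level. The annotated row spans a start-to-end distance of 393 bases on chromosome 7 (130203387 to 130203780), the shortest of the 7, with DIO2 lying 20.9 Mb before it. An antisense transcript of the DIO3 locus is known in human and mouse, and since the counting is not stated to use strand, reads from such a partner could not be told apart from DIO3. The nearest named rows, PPP2R5C, a phosphatase subunit, at 30.2 FPKM in both groups and PPP1R13B, a p53-binding protein, at 4.99 against 5.61 FPKM, had overlapping bounds.

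The mRNA balance of the activating to the inactivating enzyme can be written as the DIO2 to DIO3 ratio of FPKM. It was 4.67 in the high group, with 1.52 to 49.9 allowed by the bounds, and 3.70 in the low group, with 1.02 to 92.8 allowed. DIO2 mRNA had the higher level in both groups, with non-overlapping bounds in each, and the ratios of the groups could not be separated. Enzyme activity was not measured, and the short DIO3 row of 393 bases, with its wide bounds, leaves the ratio uncertain. DIO1, the type 1 deiodinase of liver and kidney, had 0.0625 FPKM (bounds 0 to 0.138) in high-group pigs and 0.0616 FPKM (bounds 0 to 0.137) in low-group pigs. These are the levels of an enzyme with little known role in brain and serve as a reference for a value near 0.

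CRYM encodes mu-crystallin, a cytosolic protein that binds triiodothyronine and also has ketimine reductase activity. It had 31.9 FPKM (bounds 22.2 to 41.6) in high-group pigs and 27.8 FPKM (bounds 16.4 to 39.1) in low-group pigs. The intervals overlapped over most of their length. The ratio was 1.15 in favour of the high group, with a log2 difference of 0.19, and the bounds allowed 0.568 to 2.53. A ratio of 2.02 would have been needed for separation, the smallest of the 6 tested members in the direction observed. In 1038 rows of like level the differences ran from -0.44 at the 10th percentile to 0.13 at the 90th, so CRYM lay above the 90th percentile, and 0.963% of those rows had separated bounds. The row lies on chromosome 3 (25531595 to 25569629). The nearest named rows on either side are UQCRC2, a subunit of the respiratory chain, at 42.1 against 40.3 FPKM, and ANKS4B, at 0.0661 against 0.0696 FPKM.

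TSHR encodes the thyrotropin receptor, through which pars tuberalis thyrotropin reaches tanycytes. It had 1.18 FPKM (bounds 0.465 to 1.90) in high-group pigs and 0.901 FPKM (bounds 0.274 to 1.53) in low-group pigs. The ratio was 1.31 and the log2 difference 0.20, with 0.304 to 6.93 allowed by the bounds, and 4.31 needed for separation. The intervals overlapped, and a smaller ratio in favour of the high group could not have been separated. The row lies on an unplaced scaffold of the build (GL894004.1, 32742 to 104314) that holds 2 rows. The other is an unnamed row inside the same span, listed at 0 in both groups.

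The ligand of this receptor is a dimer of TSHB and CGA. TSHB had 0.907 FPKM (bounds 0 to 1.89) in high-group pigs and 2.53 FPKM (bounds 0 to 5.21) in low-group pigs. TSHB therefore passed the filter only through the low group, and the counts and medians of every list that holds it include it. CGA, the alpha subunit shared with the gonadotropins, had 15.5 FPKM (bounds 9.54 to 21.4) against 43.7 FPKM (bounds 15.9 to 71.5). Both subunits had the lower value in the high group, by log2 differences of -0.89 and -1.44, both with overlapping bounds, while the receptor had the higher one. Both subunits are also made in the anterior pituitary. Over the pars tuberalis list, 6 of 6 tested genes had the lower value in the high group, with a median of -0.19. Once scaled by median of ratios this became 3 of 6, with a median of -0.09. NMU, a neuropeptide found in rat pars tuberalis, was at 4.44 against 5.80 FPKM. The melatonin receptor MTNR1A, a defining gene of the pars tuberalis, was near 0 in both groups, at 0.0521 and 0.0420 FPKM. The summed level of the list was 74.2 FPKM in the high and 107 FPKM in the low group. Other pituitary hormones had values on the same side, PRL, prolactin, at 279 against 570 FPKM and LHB, a gonadotropin subunit, at 6.40 against 21.0 FPKM. In an anterior pituitary list written after values were seen, 5 of 5 tested genes had the lower value in the high group, with a median of -1.03 and overlapping bounds, and a summed level of 387 against 749.7 FPKM. It shares TSHB and CGA with the lists above, and POMC with the hypothalamic list below. The part of attached pituitary tissue in these values was not tested.

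GPR50 encodes an orphan receptor related to the melatonin receptors and found in tanycytes. It had 1.38 FPKM (bounds 0.631 to 2.12) in high-group pigs and 0.873 FPKM (bounds 0.244 to 1.502) in low-group pigs. The high-group value lay inside the low-group bounds, and the low-group value inside the high-group bounds. The ratio was 1.58, the log2 difference 0.34, and the bounds allowed 0.420 to 8.69, with 3.76 needed for separation. Of all tested rows, 94.8% had a lower difference. In 841 rows of like level the 90th percentile of the difference was 0.30, and 0.238% had separated bounds. The row lies on chromosome X (140336407 to 140341044) between CD99L2, an adhesion gene, at 16.1 against 15.8 FPKM, and VMA21, an assembly factor of the proton pump, at 14.9 against 16.6 FPKM.

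RAX encodes the retina and anterior neural fold homeobox factor, which adult rodent tanycytes need. It had 0.118 FPKM (bounds 0 to 0.259) in high-group pigs and 0.0515 FPKM (bounds 0 to 0.145) in low-group pigs. Both lower bounds were 0, both intervals overlapped those of DIO1, and RAX was the member below the filter of 1 FPKM. No fold is read from such values. Its row lies on chromosome 1 (179257055 to 179260967). The neighbouring row of CPLX4, a complexin, was at 0.150 FPKM in the high group and listed at 0 in the low group, and SEC11C, a signal peptidase subunit on the other side, was at 57.4 against 72.2 FPKM.

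**Figure D2:**
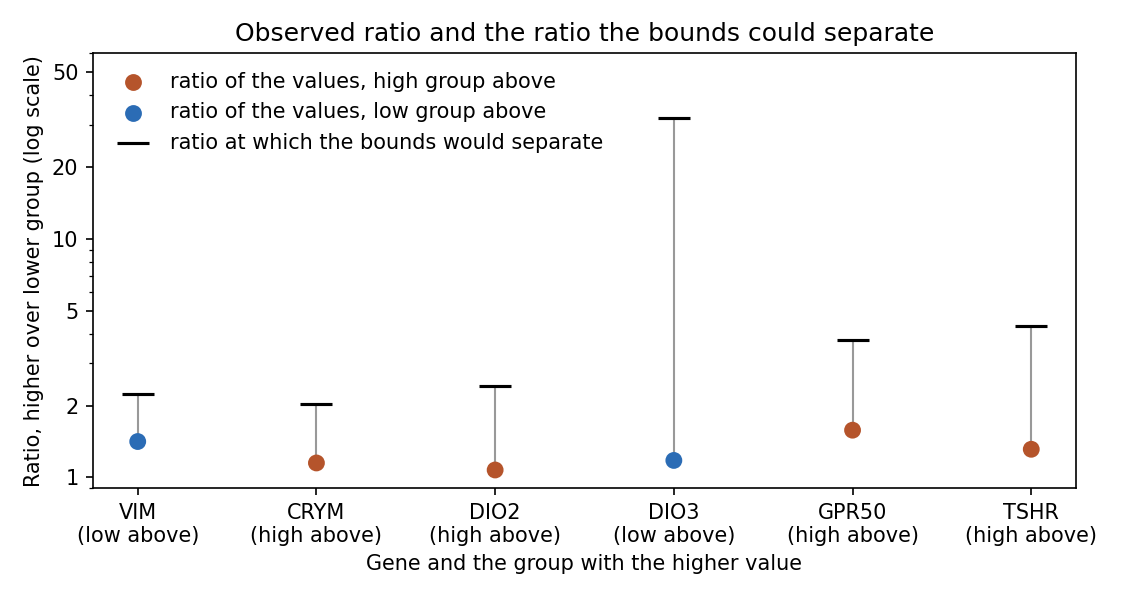
For the 6 genes above the filter, the ratio of the higher to the lower group value (points, coloured by the group with the higher value) and the ratio at which the deposited bounds would separate at the same relative width (bars), on a log axis. Every point lies below its bar, by the least for VIM (1.41 against 2.24) and by the most for DIO3 (1.18 against 32.1).

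VIM encodes vimentin, an intermediate filament of tanycytes, astrocytes, endothelium, fibroblasts and immune cells. It had 223 FPKM (bounds 156 to 290) in high-group pigs and 316 FPKM (bounds 183 to 448) in low-group pigs. The low-group value lay above the upper bound of the high group, whereas the lower part of its interval overlapped the high group. The low-to-high ratio was 1.41 and the log2 difference -0.50, with low-to-high ratios from 0.631 to 2.86 allowed and 2.24 needed for separation. Of all tested rows 6.65% had a lower difference, and 112 rows of like level had a median of -0.28 and a 10th percentile of -0.54. The distance of VIM from rows of its own level was therefore smaller than from the whole table. The row lies on chromosome 10 (48227004 to 48235670) between TRDMT1, an RNA methyltransferase, at 5.25 against 4.65 FPKM, and ST8SIA6, a sialyltransferase, at 2.59 against 2.58 FPKM.

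Markers of other cell types that hold vimentin had values on the same side. In bulk tissue, fewer cells of a type and less RNA per cell cannot be told apart. Over the fibroblast, endothelial, microglial and astrocyte lists, 29 of 30 tested genes had the lower value in the high group, the exception being the glutamate transporter SLC1A2 (104 against 100.3 FPKM), and 28 of 30 did once scaled by median of ratios. All 10 fibroblast and meningeal genes did, with a median of -1.03 and a summed level of 65.0 against 182 FPKM, and 5 of them had separated bounds, the collagens COL3A1 (4.20 against 21.5 FPKM), COL1A1 (12.2 against 52.6 FPKM) and COL1A2 (15.2 against 41.4 FPKM) and the matrix proteoglycans DCN (7.91 against 20.8 FPKM) and FMOD (6.38 against 15.6 FPKM). COL1A1 and COL1A2 each have 2 rows under this annotation, so their reads may be split and their values are uncertain.

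All 7 microglial genes were lower in the high group too, with a median of -0.52 and a summed level of 255 against 361 FPKM. Among them were CSF1R, a growth factor receptor with 2 rows, at 16.0 against 25.1 FPKM, AIF1, a calcium-binding protein, at 47.6 against 69.9 FPKM, and CX3CR1, the fractalkine receptor, at 30.5 against 44.7 FPKM. The endothelial median was -0.27 over 6 genes (37.4 against 46.4 FPKM summed), including the receptor KDR (5.83 against 8.33 FPKM) and the junction genes PECAM1 (8.13 against 10.5 FPKM) and ESAM (4.03 against 5.15 FPKM). The astrocyte median was -0.28 over 7 genes (2525 against 3207 FPKM summed) and came to -0.16 once scaled by median of ratios and to -0.05 by quantile normalization. In that list were the synthetase GLUL at 414 against 600.4 FPKM, the water channel AQP4 at 315 against 398 FPKM and S100B at 1437 against 1801 FPKM. GFAP, a defining astrocyte filament, had no estimate in the file and is listed at 0. The part of these cell types in the VIM value was not tested.

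Other intermediate filaments had lower values in the high group in 10 of 10 tested genes, with a median of -0.23 and no separated bounds, and in 9 of 10 with a median of -0.13 once scaled by median of ratios. DES, the filament of muscle and mural cells, was at 1.56 against 3.89 FPKM, and the nuclear lamin LMNB1 at 2.90 against 4.44 FPKM. NES encodes nestin, the partner of vimentin in tanycytes and progenitors, and had 1.39 FPKM (bounds 0.746 to 2.03) against 2.51 FPKM (bounds 1.34 to 3.69).

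The VIM to CRYM ratio was 6.99 (3.76 to 13.1 by the bounds) in the high group and 11.4 (4.68 to 27.2) in the low group. These are the most abundant members, and their differences had opposite signs. The ranges allowed by the bounds overlapped.

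**Figure D3:**
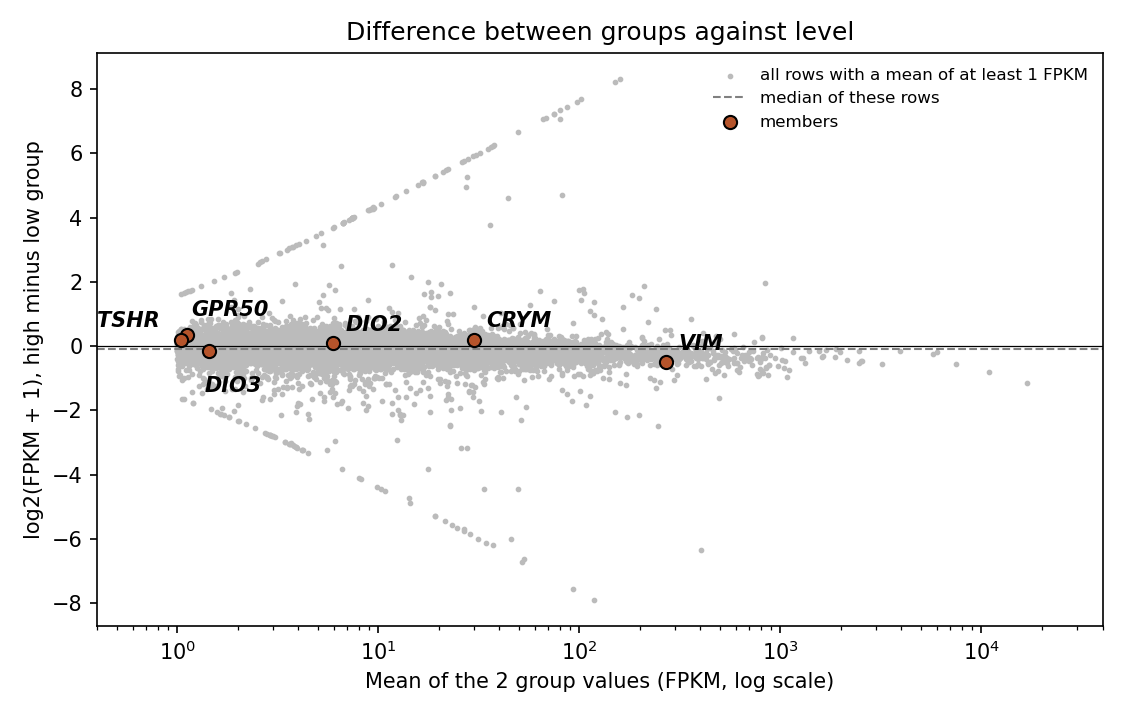
Difference in log2(FPKM + 1), high minus low group, against the mean of the group values (log scale) for all 15281 rows averaging 1 FPKM or more (grey, including rows at 0 in 1 group, which form the diagonal lines) and the 6 members above the filter (orange). The members lie inside the main cloud, from -0.50 for VIM to 0.34 for GPR50, and the dashed line marks the median of -0.10.

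The other tanycyte genes lay on both sides. All 19 genes matched in the list were tested, 5 with the high group above and 14 with the low group above, beside 67.7% of all tested rows with the low group above. Their median was -0.17, with no separated bounds, and came to -0.06 (8 and 11 genes) once scaled by median of ratios and to -0.05 (9 and 10 genes) by quantile normalization. ADM, the vasodilator peptide adrenomedullin, had 2.10 FPKM (bounds 1.04 to 3.15) against 5.88 FPKM (bounds 2.70 to 9.06). PPP1R1B, the phosphatase inhibitor DARPP-32, which striatal neurons also express strongly, had 13.5 FPKM (bounds 8.37 to 18.5) against 29.7 FPKM (bounds 17.0 to 42.4). VCAN, a matrix proteoglycan, was at 8.05 against 12.4 FPKM. Among transcription factors, SOX2 was at 18.1 against 21.4 FPKM, and LHX2, which acts upstream of RAX in mouse, at 4.40 against 3.85 FPKM. Ependymal cells are the ciliated neighbours of tanycytes, and 3 of 4 tested genes were higher in high-group pigs, with a median of 0.10 and summed levels of 19.7 and 17.9 FPKM. These were led by RSPH1, a ciliary spoke gene (6.74 against 5.09 FPKM), and AK7, a ciliary kinase, at 3.48 against 3.15 FPKM. FOXJ1, the master factor of motile cilia, was at 2.91 against 3.43 FPKM.

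Thyroid hormone enters brain cells through transporters, and all 5 tested had the lower value in the high group, with a median of -0.26 and overlapping bounds. The count held at 5 of 5 once scaled by median of ratios, with a median of -0.14. SLCO1C1, the thyroxine transporter of brain vessels and astrocytes, differed most, at 3.01 FPKM (1.61 to 4.40) against 5.38 FPKM (2.93 to 7.83), a low-to-high ratio of 1.79. SLCO1A2, which carries organic anions, stood at 10.6 against 13.7 FPKM, and SLC3A2, the heavy chain of amino acid transporters, at 59.7 against 71.6 FPKM. The carrier proteins split, with transthyretin, TTR, made by choroid plexus, at 268 against 407 FPKM and albumin, ALB, at 23.1 against 14.6 FPKM, both with overlapping bounds.

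The nuclear receptors differed little in value. THRA, the main thyroid hormone receptor of brain, had 93.9 FPKM (bounds 66.7 to 121) against 99.0 FPKM (bounds 63.5 to 134), and THRB, which mediates feedback on TRH neurons, at 12.1 FPKM (8.64 to 15.6) against 11.1 FPKM (7.20 to 15.0). Of 10 tested receptors and cofactors, 3 had the high group above and 7 the low group above, none past 1.5-fold, and the median, -0.05, turned to 0.06 once scaled by median of ratios, when 8 had the high group above and 2 the low group. The widest differences were those of RXRB, a dimer partner, at 14.1 against 16.9 FPKM, HDAC3, a corepressor enzyme, at 15.8 against 13.8 FPKM, and RXRG at 12.2 against 13.7 FPKM.

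Among genes that respond to thyroid hormone in brain, 3 of 8 tested had the high group above and 5 the low group above, with a median of -0.17 and no separated bounds, and a median of -0.06 (3 and 5 genes) once scaled by median of ratios. KLF9, a direct target of the receptor, had 18.1 FPKM (bounds 12.9 to 23.2) against 20.3 FPKM (bounds 13.3 to 27.4). HR, the corepressor hairless, was at 2.54 against 3.76 FPKM. MBP, a myelin protein of oligodendrocytes, was at 2017 against 2904 FPKM. In an oligodendrocyte and myelin list written after values were seen, which includes MBP, 12 of 12 tested genes had the lower value in the high group, with a median of -0.81 and overlapping bounds, among them MOG (67.6 against 105 FPKM), MAG (47.7 against 73.7 FPKM) and SOX10 (3.77 against 6.96 FPKM). Their summed level was 2991 against 4693 FPKM. SOX10 has another row, with a log2 difference of -0.76, so its reads may be split. The part of oligodendrocytes in the MBP value was not tested. PCP2 was at 1.05 against 1.37 FPKM with lower bounds of 0.

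Deiodinases carry selenocysteine, and 7 of 7 tested genes of selenoprotein synthesis and selenium supply had the lower value in the high group, with a median of -0.13, near that of all rows. Once scaled by median of ratios 4 of 7 did, with a median of -0.02. SELENOP, the selenium carrier, had 89.1 FPKM (bounds 63.4 to 115) against 149.9 FPKM (bounds 93.7 to 206), a low-to-high ratio of 1.68 and the only one of the list past 1.5-fold. SECISBP2L was at 28.6 against 37.8 FPKM, and SECISBP2, which helps to read a stop codon as selenocysteine, at 10.5 against 11.7 FPKM. Type 2 deiodinase is removed by ubiquitination. Of 7 tested genes that add ubiquitin or take it off, 3 were higher in the high group. Their median over all 7 was -0.03, which scaling by median of ratios moved to 0.09. The count and median mix both functions. Those higher included the deubiquitinases USP20 (6.93 against 6.23 FPKM) and USP33 (16.6 against 15.6 FPKM), which take ubiquitin off. WSB1, the ligase adaptor that recognises the enzyme, had 62.9 FPKM (bounds 45.1 to 80.6) in high-group pigs and 38.9 FPKM (bounds 25.2 to 52.7) in low-group pigs, a ratio of 1.62. The conjugating enzymes UBE2G2 (5.86 against 7.13 FPKM) and UBE2J1 (12.6 against 14.1 FPKM) had values on the other side.

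The hypothalamic releasing hormone TRH had 10.22 FPKM (bounds 1.64 to 18.8) against 9.88 FPKM (bounds 0 to 21.6), and TRHDE, the tanycyte enzyme that degrades it in rodents, at 1.92 FPKM (1.07 to 2.77) against 1.497 FPKM (0.684 to 2.31). The TRH axis list had 2 of 5 tested genes higher in the high group and a median of -0.03, which scaling by median of ratios moved to 0.09. Markers of the labelled tissue were present, with AVP at 472 and 354 FPKM. POMC, which the anterior pituitary list also holds and which therefore does not mark hypothalamus alone, was at 84.0 and 110 FPKM. Over the hypothalamic list 6 of 8 tested genes were higher in high-group pigs, with a median of 0.27 and overlapping bounds, as for CRYM, GPR50, TSHR and DIO2. The other 2 tested genes of the list, POMC and AGRP (7.74 against 8.81 FPKM), were lower in the high group. The widest differences of the list were those of the peptides HCRT (4.16 against 1.78 FPKM), PMCH (167 against 91.8 FPKM) and OXT (55.5 against 34.7 FPKM). Its summed level was 804 against 614 FPKM. NKX2-1, a listed gene, was not matched by that symbol. A row under its older symbol, TTF1, was lower in the high group, with a log2 difference of -0.18, and is not in these counts. Neuronal genes had 3 of 7 higher in the high group and a median of -0.09, which became 0.02 once scaled by median of ratios, with GAD2 at 33.2 against 23.4 FPKM, GAD1 at 39.2 against 32.6 FPKM and SNAP25 at 394 against 461 FPKM. Whether the sampled share of each hypothalamic region bears on the 4 members was not tested.

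**Figure D4:**
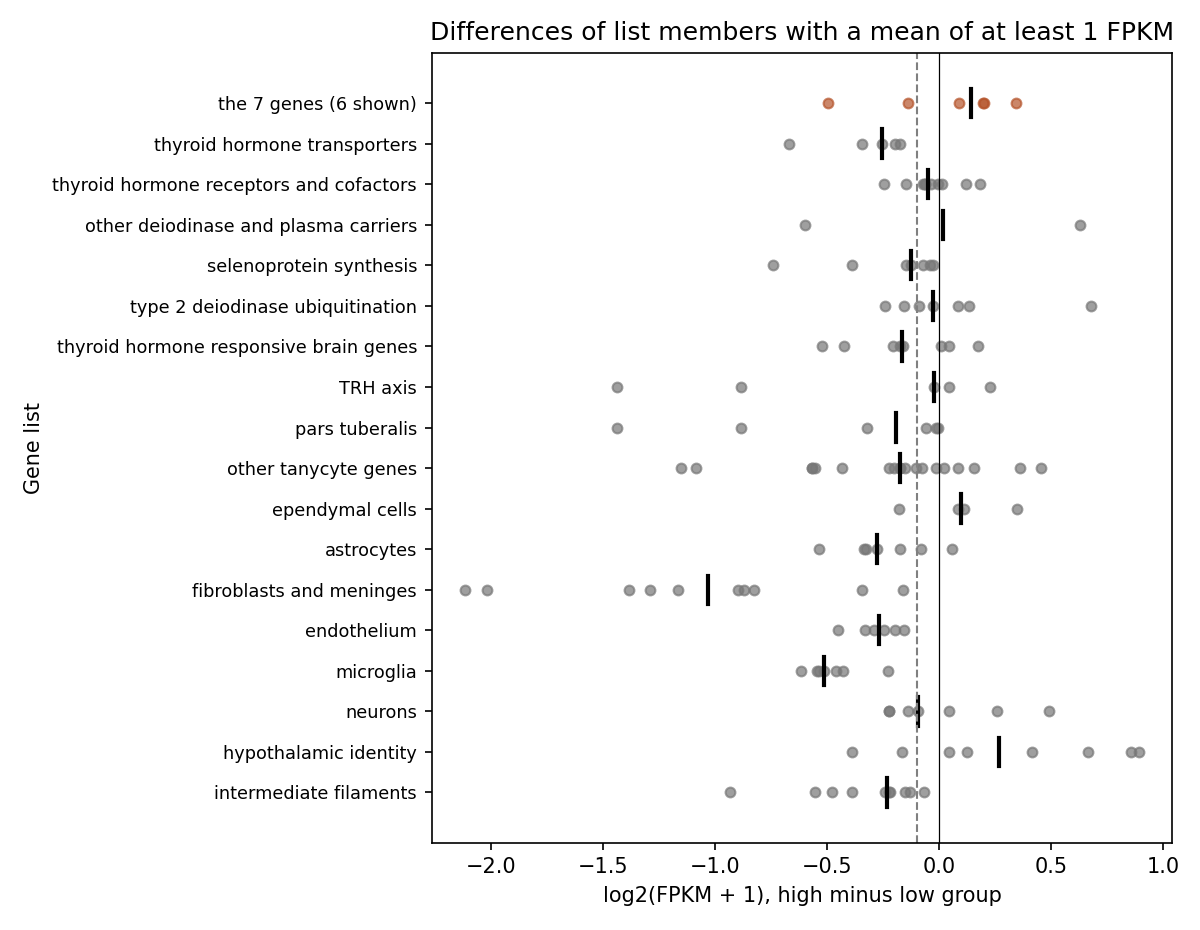
Difference in log2(FPKM + 1), high minus low group, of each gene with a mean of at least 1 FPKM in the member set (orange, 6 of 7 genes) and in 17 other lists (grey), with the list median as a black bar, 0 as a solid line and the median of all tested rows (-0.10) as a dashed line. The member set has a median of 0.14, the hypothalamic list 0.27 and the fibroblast list -1.03, and some genes stand in several lists.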

How the data were processed

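Hypothalamic RNA from 10 pigs was sequenced as paired-end libraries, per the labels' protocols. TopHat2 2.0.5, Bowtie2, Cufflinks 2.0.2 and build Sscrofa10.2 are named, without their roles, per the submitters' processing notes. The authors deposited FPKM as 1 value per gene row and group of 5 animals with confidence bounds, per the file headers. How animals were combined, and the level of the bounds, were not given in the sources used here.

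Here 58 rows whose status was not OK in both groups were left out, and rows averaging 1 FPKM or more over both groups were tested. A row was called where the bounds of the groups did not overlap, which is a description and not a test across animals. The range a ratio could take was read from opposite bounds. Calls and scaling were tested on simulated data (Python 3.11.15, pandas 2.3.3). Symbols came from the file for 16804 rows and from a table of identifiers for 963.

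The members, lists and alternatives were chosen with earlier results of these data known. The named genes were the members, their nearest named neighbours, a fixed set of thyroid and tanycyte genes, and per list the 3 widest differences and any separated gene. A gene of the fixed set is not reported here. The anterior pituitary and myelin lists, with PRL, LHB, MOG, MAG and SOX10, were added after values were seen. With 1 value per group, genes were not ranked by likeness of pattern. The alternatives were pseudocounts of 0.1 and 0.5, other filters, median-of-ratios scaling, quantile normalization, 1 row per symbol and a fold of 2.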

Additional observations from a re-analysis of the deposited data

How the results depend on the processing

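The signs of all 7 member differences were kept under both other pseudocounts, median-of-ratios scaling and quantile normalization (0 changes of sign). With or without median-of-ratios scaling, 0 members had separated bounds. VIM ran from -0.50 to -0.24, the latter after quantile normalization, and GPR50 from 0.34 to 0.60, the latter with a pseudocount of 0.1. RAX moved from 0.09 to 0.52 with a pseudocount of 0.1, which weighs values near 0 more. Over all tested rows the median, -0.10, came to lie near 0 once scaled by median of ratios. The medians of 4 of 18 lists changed sign under at least 1 setting.

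Rows with separated bounds numbered 70, and 47 to 72 under the other settings. Rows past 1.5-fold numbered 1522 (496 higher in the high group, 1026 in the low group). They became 4856 with no filter, 703 where the mean reached 5 FPKM, 575 at a fold of 2 and 1445 (735 and 710) after median-of-ratios scaling. At a fold of 2 the count of members fell from 1 to 0. The changes from filter and fold follow from the rows admitted and the stricter limit. No paired analysis was possible because animals of a group share a single deposited value, and leaving out single animals was not run for the same reason. The files give no depth, so its effect on these values could not be measured.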

Other observations

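Below the filter of 1 FPKM, TRHR, the receptor for TRH, had 0.860 FPKM (bounds 0.214 to 1.505) in high-group pigs and 0.246 FPKM (bounds 0 to 0.507) in low-group pigs. The bounds overlapped.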
